A study of Mus musculus with 6 samples.

Results

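The aminoacyl-tRNA synthetases are the enzymes that attach each amino acid to its transfer RNA (tRNA). Members were taken by gene name from the deposited gene table: the cytosolic enzymes Aars to Yars with Eprs, Farsa and Farsb, their mitochondrial counterparts whose names end in 2, and the scaffold genes Aimp1 and Aimp2. Lars2 was left out by that rule. This gave 38 of 30077 gene identifiers, of which 22 were counted as cytosolic and 16 as mitochondrial. Aimp2 ends in 2 but encodes a scaffold of a cytosolic complex, and was counted there. RNA came from bEnd.3 cells, a mouse brain endothelial line recorded as wild type, in 2 groups of 3 libraries. The mitochondria group had received, in culture medium, mitochondria prepared from a mouse osteocyte-like line, MLO-Y4. The control group received culture medium alone, and cells of both groups were collected at 24 h. Both groups are the same cell line, and the labels do not record separate cultures behind the libraries, so each p reflects the spread between libraries alone, and that spread may be technical.

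Charged tRNAs are the substrates of the ribosome, and nuclear genes encode the enzymes for both the cytosol and the mitochondrion. In the cytosol of animal cells several synthetases are held in a multisynthetase complex by scaffold proteins, while others act free of it. The mitochondrial enzymes are imported to charge the tRNAs encoded by mitochondrial DNA, and Gars and Kars each encode both a cytosolic and a mitochondrial form. Many cytosolic synthetase genes are known targets of ATF4, the transcription factor of the response to amino acid shortage, and of MYC.

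The promoter windows of 5 members held the core of the ATF4 response element, and 1 matched site in each is shown because Iars and Tars among them are compared with the other carriers further on. RefSeq promoter windows (GRCm38.p6, 250 bases before to 50 after each start, 300 in all) were found for 28 of the 38 members. The letters TGATGNAA were searched on both strands, as was the E-box CACGTG, the site of MYC and related factors, which reads the same on both strands. The motifs shared no bases in any member. TGATGNAA was present for 17.9% of these members (Aars, Gars, Iars, Tars and Yars) and for 4.51% of all 27025 genes with a window. CACGTG was present for 17.9% (Aars, Ears2, Farsb, Iars and Tars) and for 8.09% of all. These matches describe the letters only and are not measured binding sites. Sites are written 5′ to 3′ on the gene's strand, 30 bases each, with the matched letters in capitals. A capital block that starts TT holds the motif on the other strand.
Aars, from base 10 after the start, chr8:111033840-111033869, plus strand: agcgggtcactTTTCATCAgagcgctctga
Gars, 30 bases before the start, chr6:55037960-55037989, plus strand: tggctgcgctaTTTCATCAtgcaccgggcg
Iars, from base 8 after the start, chr13:49682126-49682155, plus strand: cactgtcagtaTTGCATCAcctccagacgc
Tars, 15 bases before the start, chr15:11399655-11399684, minus strand: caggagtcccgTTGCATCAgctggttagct
Yars, from base 4 after the start, chr4:129189895-129189924, plus strand: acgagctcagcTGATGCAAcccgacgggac

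Aars, Iars and Tars held both motifs. Iars and Tars are the motif-bearing genes whose mitochondria libraries all lay below the controls in CPM, a scale explained further on. Their upstream stretches of 250 bases are given with any motif in capitals. The E-box of Tars and the ATF4-type site of Iars lie beyond these stretches, after the start. The RefSeq starts used here were 6 bases (Gars), 7 (Tars), 30 (Iars), 143 (Yars) and 698 (Aars) from the gene starts of the deposited table.
Iars, chr13:49681880-49682129, plus strand: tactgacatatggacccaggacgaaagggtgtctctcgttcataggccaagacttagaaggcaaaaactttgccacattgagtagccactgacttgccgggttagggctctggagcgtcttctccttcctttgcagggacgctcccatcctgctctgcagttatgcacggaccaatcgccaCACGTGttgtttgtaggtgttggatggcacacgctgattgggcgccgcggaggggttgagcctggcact
Tars, chr15:11399659-11399908, minus strand: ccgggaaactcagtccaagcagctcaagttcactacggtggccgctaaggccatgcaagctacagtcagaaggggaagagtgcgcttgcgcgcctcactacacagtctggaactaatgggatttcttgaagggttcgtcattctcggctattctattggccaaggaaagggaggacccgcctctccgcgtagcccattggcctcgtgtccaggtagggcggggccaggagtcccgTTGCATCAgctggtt

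Libraries held 59651087 to 65576084 counts, and single members 438 to 20353 counts per library. Of 13 endothelial markers 12 passed the filter, and their summed FPKM (fragments per kilobase of exon, scaled to library size) was 1237 to 1242 in controls and 1181 to 1248 in mitochondria libraries, while Vwf did not pass. None of the 12 was called, but 11 were above 0, with a median log2 fold change of 0.07. At an unadjusted p under 0.05 there were 5, all higher (41.7%, against 7.82% of all genes), with Flt1, Esam and Egfl7 at edgeR adjusted p of 0.0503, 0.0532 and 0.0579. The part of this shift in the members' values was not tested. Of 13 osteocyte markers 10 were in the table. Gja1, which is not particular to osteocytes, passed the filter, and the other 9 stayed at or below 0.634 FPKM in every library, with Bglap at 0 throughout. Summed over these markers with Gja1, the level was 12.7 to 13.4 FPKM in controls and 11.0 to 11.7 in mitochondria libraries, and their part in the results was not tested. Reads of a ribosomal RNA locus (2 neighbouring rows, the main one annotated as rRNA in GENCODE M21) were 2.55 ± 0.855% of control and 5.65 ± 1.60% of mitochondria counts (SD, n = 3). That share moves with the groups, and library totals include these reads.

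None of the 38 synthetase and scaffold genes was called changed after mitochondria were added. Calls were made at a Benjamini-Hochberg adjusted p under 0.05 in edgeR's quasi-likelihood test over 11255 genes. All 38 passed the filter of at least 1 FPKM in at least 3 libraries. Among all genes tested 2.09% were called, 111 higher (0.986%) and 124 lower (1.10%). The 4 lowest p-values were those of Eprs, Tars, Iars and Rars, with log2 fold changes of −0.14, −0.14, −0.12 and −0.11, and these were the members that DESeq2 called, at a background of 5.31% of all genes (2.91% lower). At an unadjusted p under 0.05 there were 8 of 38 members (21.1%), 6 lower and 2 higher, against 16.1% of all genes (8.28% lower and 7.82% higher). The median log2 fold change was −0.04 over the 22 cytosolic members, −0.06 over the 16 mitochondrial ones and 0.0011 over all genes tested. Of the 38 members 26 were below 0 (68.4%), against 49.6% of all genes. Below 0 were 36 members with TPM (FPKM rescaled to the same total in each library), a scale on which the median of all genes was itself −0.15, and 20 with the ribosomal share as a covariate. With that covariate, which also counted the reads of Lars2, the median of the mitochondrial members was 0.13, while that of the cytosolic ones was −0.05.

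**Figure D1:**
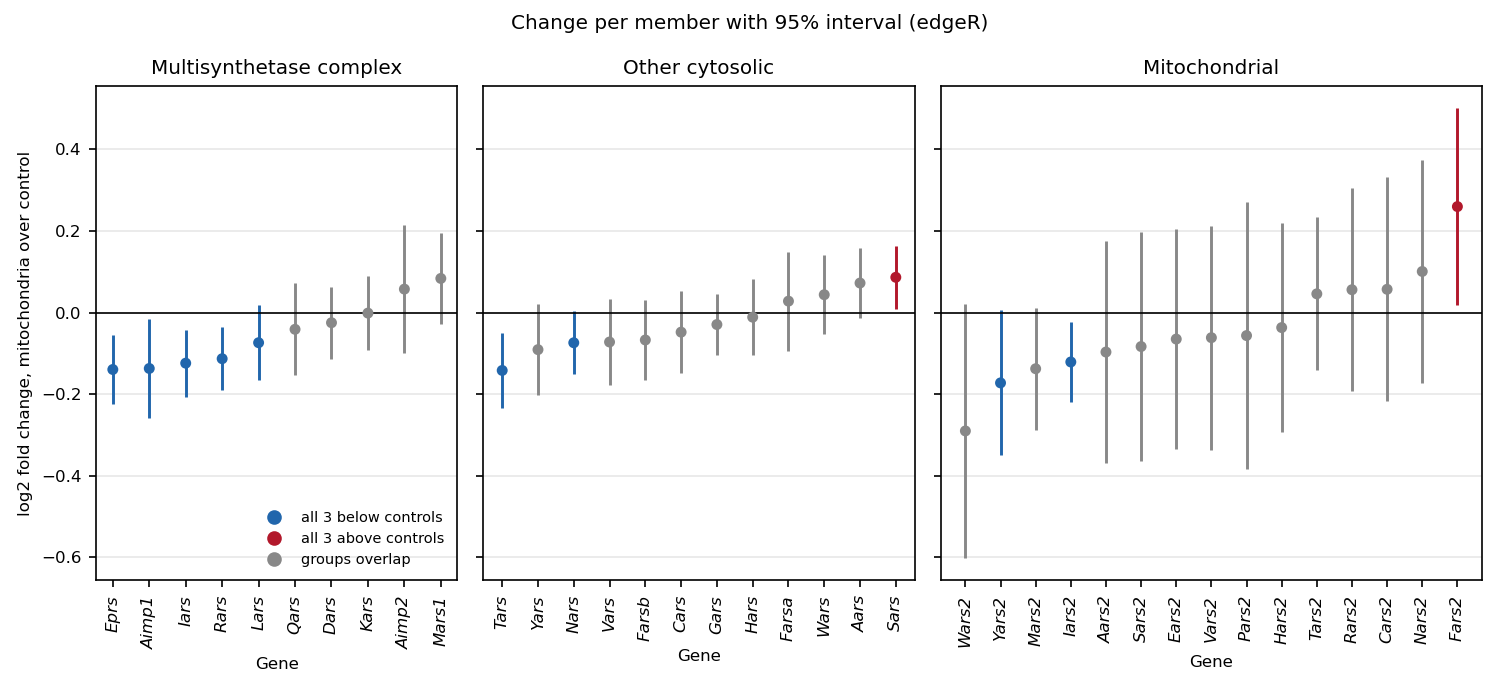
Log2 fold change of each member drawn (mitochondria over control, points) with its 95% interval (lines), from edgeR, in 3 panels by location. Blue and red mark genes whose 3 mitochondria libraries all lay below or above the controls in CPM (counts scaled by TMM). The cytosolic intervals stay between −0.26 and 0.21, and the mitochondrial ones reach −0.60 and 0.50.

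For the cytosolic members the 95% intervals of the log2 fold change lay between −0.26 and 0.21 in all 22 cases, and for the mitochondrial members between −0.60 and 0.50. These intervals are those of TMM scaling. Median-of-ratios and upper-quartile scaling gave nearly the same medians, −0.04 and −0.04 for cytosolic and −0.06 and −0.05 for mitochondrial members. With TPM the log2 fold changes of Tars, Eprs, Aimp1, Iars, Iars2 and Rars were −0.30, −0.29, −0.29, −0.28, −0.27 and −0.27. The median of all genes was −0.15 on that scale. The median SE was 0.042 for cytosolic and 0.12 for mitochondrial members. For 12 members (31.6%) the mitochondria libraries all lay outside the control range in CPM (counts scaled by TMM), against 21.1% of all genes. Of these 9 were below (23.7%, against 11.0%) and 3 above (7.89%, against 10.1%).

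Per length of transcript, the cytosolic enzymes were expressed well above the mitochondrial ones in both groups. The median of the members' control FPKM was 23.2 for cytosolic and 2.64 for mitochondrial members, against 7.30 for all genes tested. Of 22 cytosolic members 20 had a higher control mean than the highest mitochondrial one. Rars, the arginyl-tRNA synthetase, had the highest level of all at 79.7 ± 1.16 FPKM in controls (SD, n = 3), and Gars, the glycyl enzyme, followed at 61.8 ± 0.647. The lowest cytosolic levels were those of Yars, the tyrosyl enzyme, at 8.70 ± 0.221 and the scaffold Aimp1 at 9.55 ± 0.351 FPKM. Among mitochondrial members Iars2, the isoleucyl enzyme, was highest at 9.73 ± 0.187 and Nars2, the asparaginyl enzyme, lowest at 1.39 ± 0.122 FPKM. Neighbours in the order of control levels had ranges that did not overlap in 7 of 9 steps within the complex, 7 of 11 among other cytosolic members and 8 of 15 among mitochondrial members. The remaining neighbours had overlapping control ranges.

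**Figure D2:**
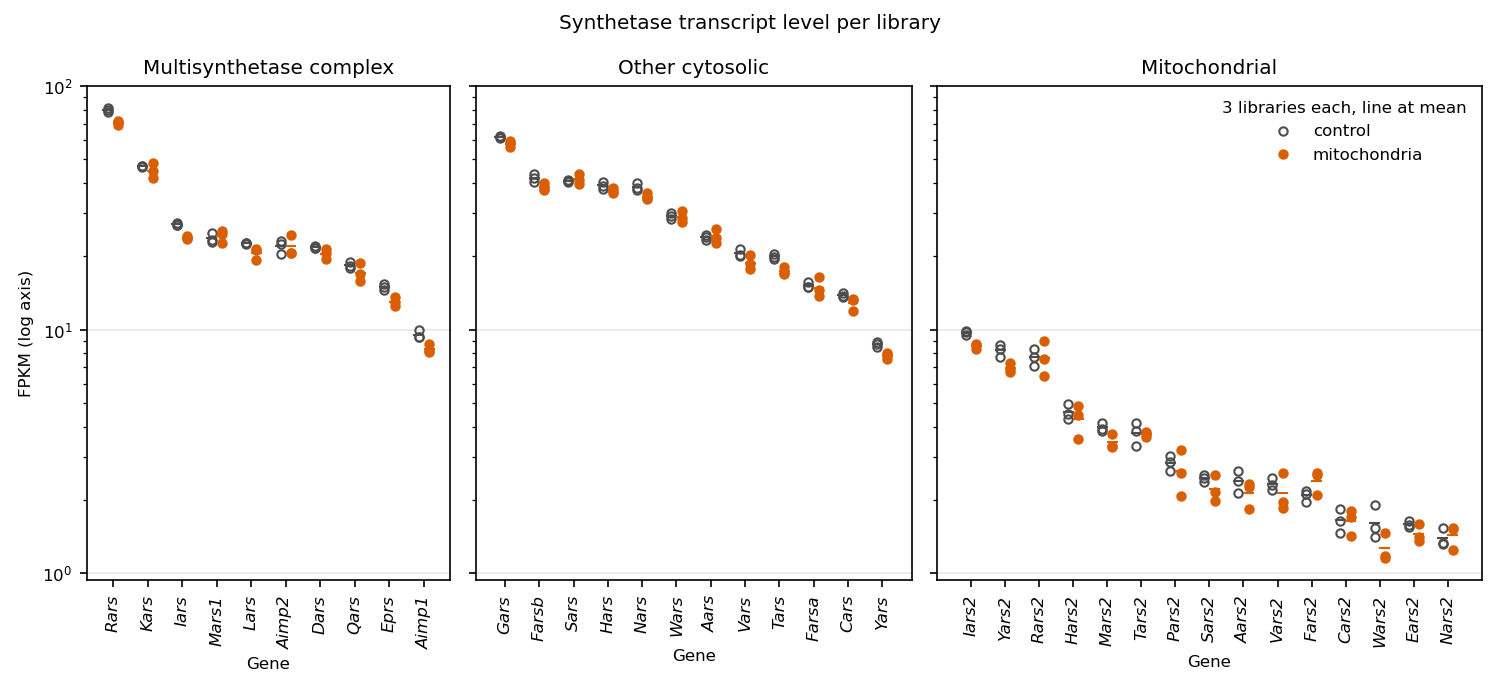
FPKM of each member drawn in each library on a log axis, with open circles for the 3 control and filled circles for the 3 mitochondria libraries and a line at each mean. Cytosolic members run from 8.70 (Yars) to 79.7 FPKM (Rars) in controls and mitochondrial members from 1.39 (Nars2) to 9.73 (Iars2).

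In the multisynthetase complex, 8 of 10 members had log2 fold changes below 0, with a median of −0.06, and none passed the test. Levels within a gene are given as CPM, counts divided by library totals that TMM had adjusted. Eprs, the fused glutamyl-prolyl enzyme (ENSMUSG00000026615, GRCm38 chromosome 1: 185363044 to 185428360), had 313, 297 and 298 CPM in controls and 279.9, 280.5 and 264 CPM in mitochondria libraries. All 3 mitochondria libraries were below the lowest control, a log2 difference of −0.14 (standard error 0.038, edgeR adjusted p = 0.0948). DESeq2 gave the same size with an adjusted p of 0.00921.

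Iars, the cytosolic isoleucyl enzyme (chromosome 13: 49682100 to 49734267), had 163, 156 and 159.8 CPM in controls and 146, 148 and 146 CPM with mitochondria. The groups stood apart, by −0.12 on the log2 scale (standard error 0.038, edgeR adjusted p = 0.130, DESeq2 adjusted p = 0.0397). Rars (chromosome 11: 35808381 to 35834506) had 289.7, 287 and 286 CPM in controls and 261, 275 and 261 CPM with mitochondria. Its controls were close together and the groups did not overlap, at −0.11 (standard error 0.035, edgeR adjusted p = 0.139, DESeq2 adjusted p = 0.0303). The scaffold Aimp1, also known as the precursor of a cytokine, had 59.2, 57.7 and 62.9 CPM in controls and 52.0, 54.1 and 57.5 CPM with mitochondria. The highest mitochondria library, number 3, lay just under control 2, and the log2 difference was −0.14 (standard error 0.056, edgeR adjusted p = 0.256).

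The other 6 members of the complex lay nearer to 0. Lars, the leucyl enzyme, was the fifth gene of the complex whose groups did not overlap, at −0.07 (standard error 0.042, edgeR adjusted p = 0.426). All 5 lay below the controls, 50% of the complex, against 11.0% of all genes. Qars, Dars and Kars, which charge glutamine, aspartate and lysine, were at −0.04, −0.02 and −0.0013. Mars1, the methionyl enzyme, and the scaffold Aimp2 were above 0 in this fit, at 0.08 and 0.06. They were at −0.07 and −0.10 with TPM, where the median of all genes was −0.15. Summed over the 10 genes, the complex held 1582, 1524 and 1549 CPM in controls and 1507, 1460 and 1468 CPM in mitochondria libraries. The highest mitochondria library was below the lowest control in this sum, of which Eprs and Rars are the largest parts.

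Of the 12 other cytosolic enzymes none passed, with 8 below 0 and a median of −0.04. Tars, the threonyl enzyme (chromosome 15: 11382301 to 11399665), had 136, 127 and 133 CPM in controls and 122, 120.4 and 116 CPM with mitochondria. Every mitochondria library was below every control, at −0.14 (standard error 0.042, edgeR adjusted p = 0.126, DESeq2 adjusted p = 0.0399). Nars, the asparaginyl enzyme, had 188, 191 and 184 CPM in controls and 179.7, 178 and 177 CPM with mitochondria, a shift of −0.07 (standard error 0.035, edgeR adjusted p = 0.332) without overlap.

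Sars and Aars lay on the other side. Sars, the seryl enzyme, had 235, 230.2 and 237 CPM in controls and 255, 242 and 248 CPM with mitochondria. It was the single cytosolic member whose groups stood apart in CPM with mitochondria higher (0.09 with an SE of 0.036, edgeR adjusted p = 0.262). In FPKM its groups overlapped. With TPM Sars was at −0.07, beside −0.15 for the median of all genes. Aars, the alanyl enzyme, had 252, 249 and 244 CPM in controls and 273, 251 and 259 CPM with mitochondria. Mitochondria 2 lay within the control range, and the log2 difference was 0.07 (standard error 0.039, edgeR adjusted p = 0.401). With TPM Aars was at −0.09, also above the median of all genes.

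Gars and Yars stood at the ends of the range of levels. Gars had 215, 211 and 219 CPM in controls and 211, 209 and 212 CPM with mitochondria, at −0.03 (standard error 0.035, edgeR adjusted p = 0.743). Yars had 59.6, 55.1 and 58.5 CPM in controls and 53.2, 53.8 and 55.7 CPM with mitochondria, at −0.09 (standard error 0.051, edgeR adjusted p = 0.418). In both genes 1 or more mitochondria libraries lay within the control range. The remaining 6 enzymes (Cars, Farsa, Farsb, Hars, Vars and Wars) had log2 fold changes of −0.07 to 0.04, and the groups overlapped in each. Of the 5 genes with an ATF4-type site, Tars and Iars lay below the controls and Gars, Yars and Aars overlapped them, beside 23.7% of all members and 11.0% of all genes below. Eprs and Aimp1 also lay below, and these letters are not in their windows. Rars, Lars and Nars lay below too, and no window of theirs was searched. Of the mitochondrial members Iars2 and Yars2 lay below as well, and neither is among the genes in which these letters were found. These placings are in CPM and depend on the scale. In FPKM Gars had 61.2, 61.7 and 62.5 in controls and 59.6, 56.4 and 58.2 with mitochondria. Yars had 8.89, 8.46 and 8.75 FPKM in controls and 7.87, 7.61 and 8.02 with mitochondria. Both lay below the controls on that scale, while Aars still overlapped them.

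**Figure D3:**
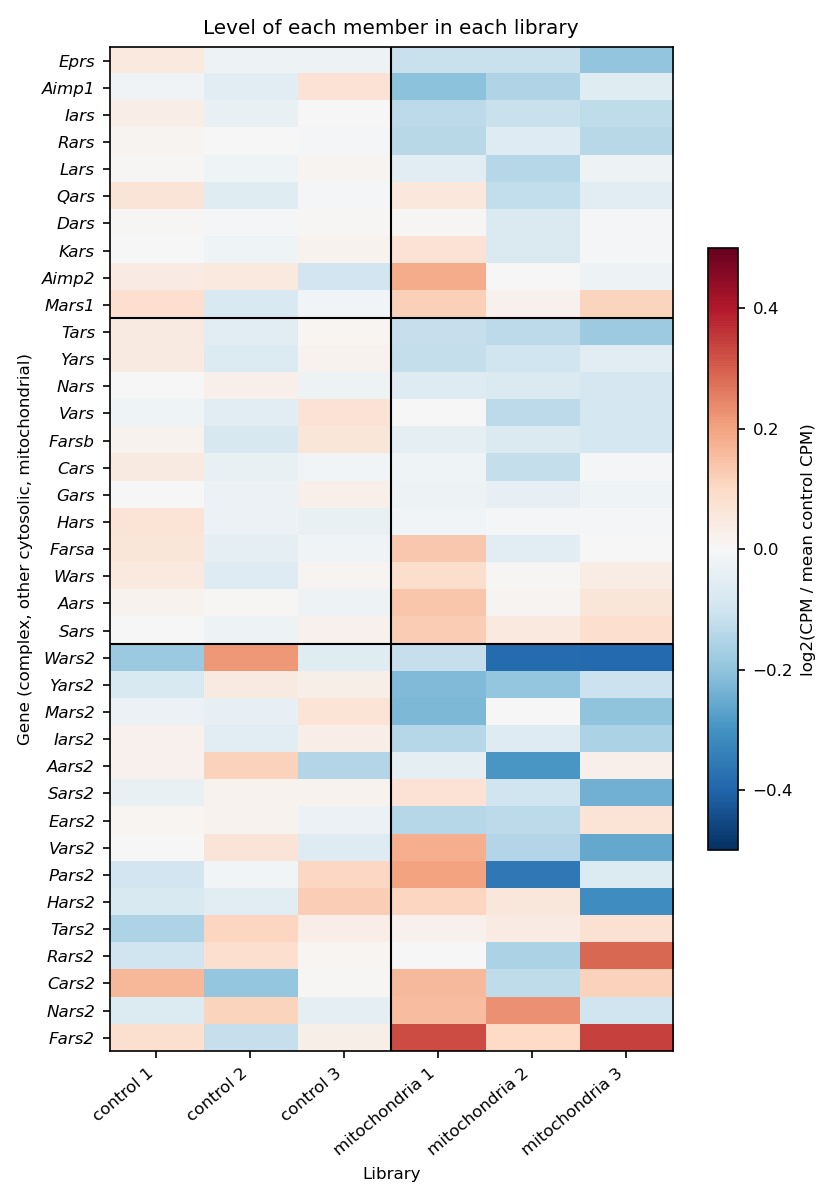
Level of each member drawn in each library as log2 of its CPM over the mean control CPM, with rows grouped by location and sorted by log2 fold change, and columns for the 6 libraries. Eprs, Iars, Rars and Tars are lower in all 3 mitochondria libraries, and rows of mitochondrial members vary more within a group than those of cytosolic members.

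Of the 16 mitochondrial enzymes none passed, 10 were below 0 and 6 above, and 12 had overlapping groups. Groups did not overlap in 25% of them, near the 21.1% of all genes. Iars2 (chromosome 1: 185284726 to 185329396) had 97.9, 92.8 and 98.9 CPM in controls and 87.4, 92.3 and 86.5 CPM with mitochondria. Its groups were narrowly apart, control 2 and mitochondria 2 lying close, a log2 difference of −0.12 (standard error 0.045, edgeR adjusted p = 0.217). Yars2, the tyrosyl enzyme, had 27.4, 29.8 and 29.5 CPM in controls and 24.8, 25.3 and 26.8 CPM with mitochondria. It too was lower without overlap, at −0.17 (standard error 0.081, edgeR adjusted p = 0.327).

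Fars2, the phenylalanyl enzyme, lay on the other side, with all mitochondria libraries above the controls. It had 14.2, 12.4 and 13.7 CPM in controls and 16.8, 14.4 and 17.0 CPM with mitochondria, at 0.26 (standard error 0.11, edgeR adjusted p = 0.273). Mitochondria 2 exceeded control 1 by little in this gene.

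Nars2 had 10.3, 11.7 and 10.5 CPM in controls and 12.1, 12.7 and 10.1 CPM with mitochondria, so the groups overlapped (0.10 with an SE of 0.13, edgeR adjusted p = 0.758). With TPM Nars2 was at −0.05, beside −0.15 for the median of all genes. Wars2, the tryptophanyl enzyme, named after its values were seen, had the lowest log2 fold change of the 38 at −0.29 (standard error 0.14, edgeR adjusted p = 0.349). Its controls ranged from 9.42 to 12.4 CPM and its mitochondria libraries from 8.18 to 9.90 CPM, and the fit with the ribosomal share as a covariate gave 0.14. A further 10 mitochondrial enzymes ran from −0.14 (Mars2, which charges methionine) to 0.06 (Cars2, which charges cysteine), and the groups overlapped in each. Summed over the 16 genes, the level was 374, 381 and 388 CPM in controls and 374, 366 and 367 CPM with mitochondria.

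For 15 amino acids a cytosolic gene could be set beside a mitochondrial one, with Farsa standing for the cytosolic phenylalanyl enzyme and Eprs for proline. The cytosolic transcript had the higher FPKM in all 6 libraries for 14 of the 15 pairs, and the median ratio was 8.49 in controls and 7.87 with mitochondria. Nars to Nars2 had the highest ratio at 27.8 ± 1.59 in controls and 24.8 ± 2.86 with mitochondria (SD, n = 3). Iars and Iars2 kept nearly the same ratio, 2.79 ± 0.0566 and 2.78 ± 0.0788, and their log2 fold changes were −0.12 each. Yars and Yars2 were the exception in level, at 1.06 ± 0.0874 and 1.12 ± 0.0199, with control 2 under 1. The log2 fold changes of both partners had the same sign in 6 of the 15 pairs, in 5 of them below 0. No test of these ratios was made.

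**Figure D4:**
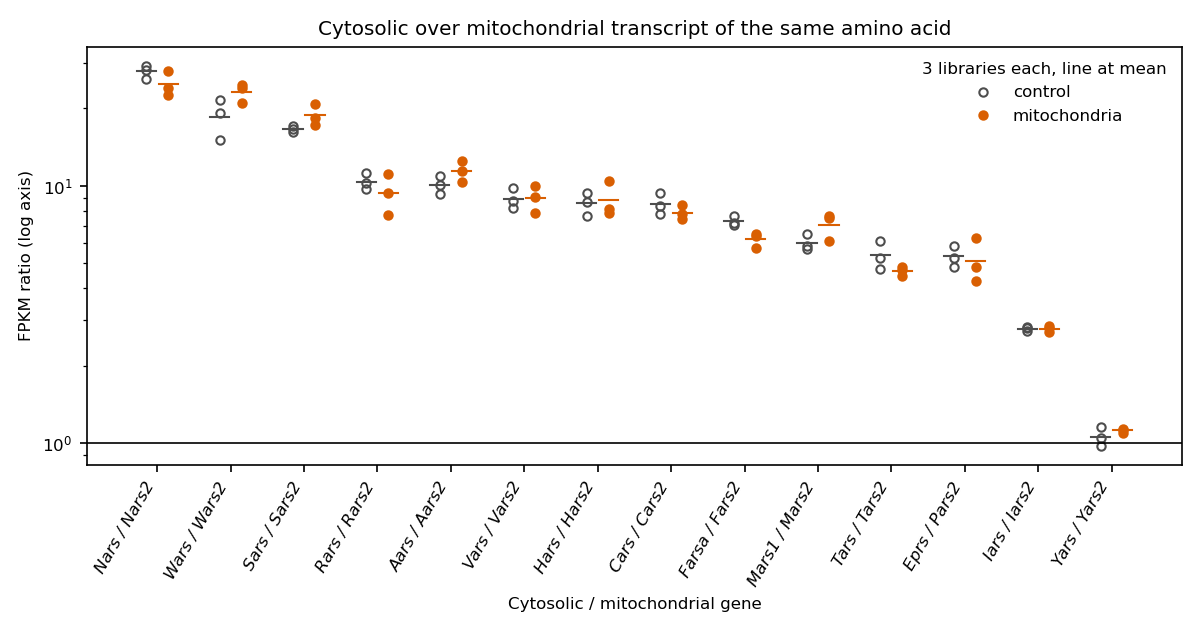
For the pairs drawn, ratio of the FPKM of the cytosolic to that of the mitochondrial gene for the same amino acid, per library on a log axis, with open circles for control, filled circles for mitochondria and lines at the means. The ratios run from 27.8 (Nars over Nars2) to 1.06 (Yars over Yars2) in controls, and the groups lie close together in most pairs.

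Lars2, the mitochondrial leucyl enzyme that the rule leaves out, behaved unlike its family. It had 3442, 1538 and 2697 CPM in controls and 4427, 8589.7 and 7335 CPM with mitochondria (1.41 on the log2 scale with an SE of 0.26, edgeR adjusted p = 0.0186, not called without control 3 or mitochondria 3). Its control level of 206 ± 74.9 FPKM (SD, n = 3) was above that of every member, the highest mitochondrial member standing at 9.73 FPKM. Reads of the ribosomal locus were 3.21, 1.59 and 2.86% of counts in controls and 3.94, 7.11 and 5.90% in mitochondria libraries. Lars2 held 0.344, 0.158 and 0.270% in controls and 0.440, 0.825 and 0.715% in mitochondria libraries. Both shares put the 6 libraries in the same order, with mitochondria 2 highest, and the cause was not tested. With the ribosomal share as a covariate the log2 fold change of Lars2 was 0.12. That covariate included the Lars2 reads themselves, so this value cannot show whether Lars2 moved with the ribosomal reads. None of the 16 mitochondrial members had a log2 fold change above 0.26.

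Genes around tRNA charging were read from lists beside the members. Of 15 tested partners of tRNA charging none passed, with a median of −0.02. Among them Eef1e1, the third scaffold protein of the complex, had 41.2 ± 1.30 CPM in controls and 35.3 ± 2.23 CPM with mitochondria (−0.22 with an SE of 0.068, edgeR adjusted p = 0.130). Xpo5, an exporter of small RNAs, was at −0.15 and Aarsd1, an alanyl-tRNA editing protein, at 0.31, both short of the threshold. None of 28 genes of mitochondrial tRNA modification and translation passed (median 0.0026), Trmt10c, a subunit of mitochondrial RNase P, having the lowest p (−0.28 with an SE of 0.078, edgeR adjusted p = 0.103). None of 21 cytosolic elongation and initiation genes passed (median −0.03), Eif2b1, a subunit of the eIF2B exchange factor, having the lowest p (−0.18 with an SE of 0.050, edgeR adjusted p = 0.0902).

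In the list of the integrated stress response and ATF4 targets, which holds other genes that carry the ATF4 element, 3 of 25 tested genes rose and none fell, with a median of −0.01, beside 0.986% of all genes called higher and 1.10% lower. At an unadjusted p under 0.05 the list had 4 higher and 3 lower (28% in all). Among all genes that share was 16.1% (7.82% higher and 8.28% lower). The 3 genes called higher were Slc7a11, Slc3a2 and Ddit4. Slc7a11, the cystine transporter, had 87.3 ± 4.14 and, after mitochondria, rose to 118 ± 3.75 CPM as group means with SD over 3 libraries (0.43 on the log2 scale with an SE of 0.047, edgeR adjusted p = 0.000801) and was called whichever library was left out, though at 0.26 with TPM. Its partner chain Slc3a2 rose by 0.21 (standard error 0.039, edgeR adjusted p = 0.0190), a call lost without control 2 or 3, and was at 0.05 with TPM. Ddit4, an inhibitor of mTORC1, rose by 0.40 (standard error 0.082, edgeR adjusted p = 0.0285), a call kept only without mitochondria 1, and was at 0.23 with TPM and 0.18 with the ribosomal share as a covariate. With TPM the median of all genes was −0.15. Atf4 itself was at −0.07 in the edgeR fit (standard error 0.049, edgeR adjusted p = 0.535). Asns, the asparagine synthetase gene, was at −0.01 (SE 0.088), and Psat1, an enzyme of serine synthesis, at −0.18 (standard error 0.048, edgeR adjusted p = 0.0855).

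Of 16 tested amino acid sensing genes and MYC partners, Myc alone passed. Its level of 81.8 ± 0.653 fell to 68.5 ± 2.27 CPM as group means with SD over 3 libraries (−0.26 on the log2 scale with an SE of 0.044, edgeR adjusted p = 0.0144), a call lost without control 3 or mitochondria 3, and was at −0.41 with TPM. The median of all genes was −0.15 with TPM. The eIF2 alpha kinases had no member that passed. The part of Myc, of the ribosomal share or of any other of these genes in the members' values was not tested.

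Calls among the members depended on the test. Beside the 4 genes that DESeq2 called lower, other fits called some of the same genes. With scaling by library totals alone edgeR called the same 4 genes, and 3.14% of all genes (2.59% lower). On TPM limma called Iars, Rars and Tars, and 2.91% of all genes (2.74% lower). With the replicate number as a block edgeR called Eprs, and 3.50% of all genes (1.87% lower). In those fits without TMM the median of all genes was −0.05 and −0.15, so part of each fold is shared by all genes: with TPM, Tars was at −0.30, Iars at −0.28 and Rars at −0.27. The share of higher genes among all calls was 47.2% in the main test, 17.3% with library totals, 17.9% with limma on log2(FPKM + 1) and 6.10% on TPM. No member was called with any library left out. Of the 38 members 10 overlap, on the opposite strand, a gene with a mean of at least 100 counts, among them Aimp2 with Eif2ak1 (1548 bases), Iars2 with Rab3gap2 (2034 bases) and Hars with Hars2 (198 bases). The library kit was a stranded one, but whether counting used strand is not stated in these sources, so reads of these pairs may be shared. In these cultures a change in the mix of cells and a change in RNA per cell cannot be told apart.

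**Figure D5:**
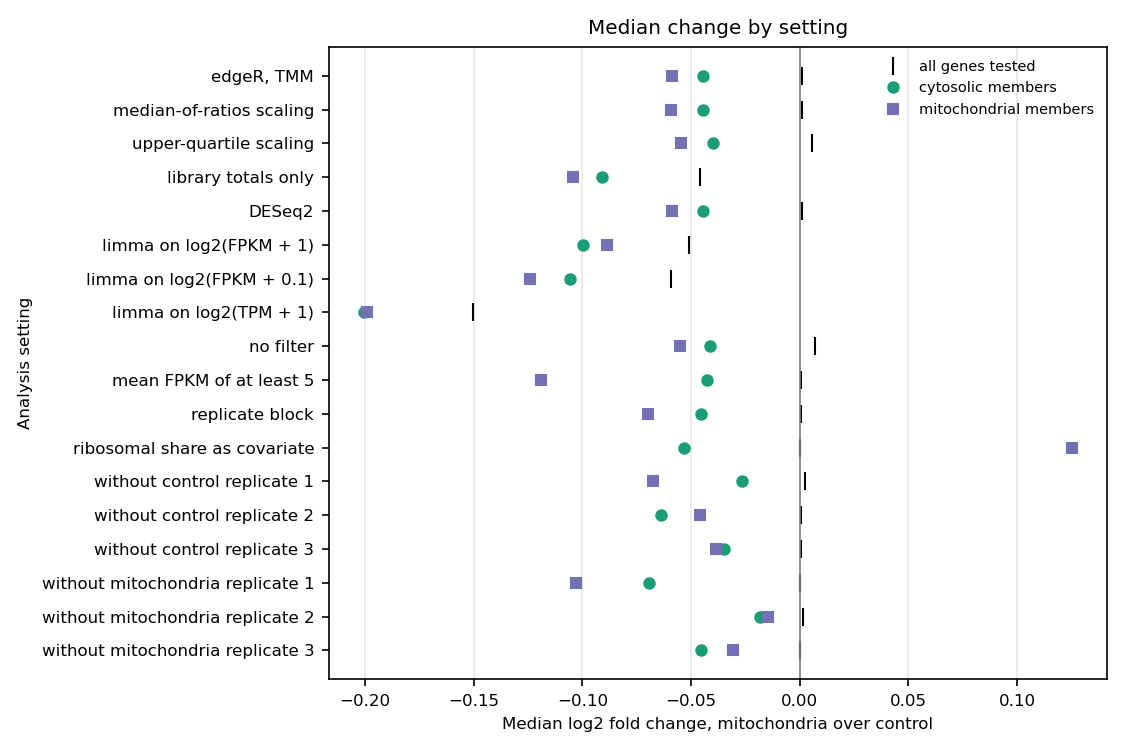
Median log2 fold change (mitochondria over control) over the cytosolic members (circles), the mitochondrial members (squares) and all genes tested (bars) under each analysis setting. The cytosolic median stays below that of all genes in every setting drawn, and the mitochondrial median is 0.13 with the ribosomal share as a covariate and below that of all genes in the other settings.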

How the data were processed

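Per the file headers, the deposited table holds raw counts and FPKM values for each gene in 6 libraries, and the samples were grouped by their treatment label. StringTie 2.1.6, HISAT2 2.2.1, cutadapt 1.9, edgeR and DESeq2 are named, with build GRCm38, per the submitters' processing notes. What each did, and whether counting used strand, is not given in the sources used here. From the deposited counts, genes that reached 1 FPKM in 3 or more libraries were tested with edgeR 4.0.16 (R 4.3.3, TMM, glmQLFit and glmQLFTest, group as the only term, two-sided), with Benjamini-Hochberg adjustment over all 11255 genes and a threshold of 0.05. The script was tested on simulated data. The SE was obtained as the size of the log2 fold change divided by √F, and 95% intervals use the test's degrees of freedom. Coordinates are those of the deposited table, and 29 of 38 members have the same start and end in GENCODE M21. Promoters are RefSeq's.

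The members and lists were chosen with earlier results of these data known. Members given in full are the 4 with the lowest p and those with the highest and lowest level in each of 3 classes, and, of the lists, the genes that passed or up to 3 with the lowest p. The ribosomal share given as a percent of counts came from 2 rows of a ribosomal RNA locus and holds no Lars2 reads. The share used as a covariate was the log2 of these rows together with Lars2, as a percent of counts. Atf4, Asns and Psat1 were named outside that rule, after their values were seen. Alternatives were DESeq2 1.42.0, limma 3.58.1 on FPKM or TPM, other scalings and filters, a replicate block, the ribosomal share as a covariate, and each library left out. Values of 1 member and 1 of the matched promoter sites are not reported here; the counts and medians over members include that gene.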

Additional observations from a re-analysis of the deposited data

How the results depend on the processing

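No member was called with median-of-ratios or upper-quartile scaling, limma on FPKM, a minimum mean FPKM of 5, no filter, the ribosomal covariate or any library left out. Members called numbered 4 with library totals only, 4 with DESeq2, 3 with limma on TPM and 1 (Eprs) with the replicate block, all lower. The lowest adjusted p of any member ranged from 0.00921 (DESeq2) to 0.773 (ribosomal covariate) over the 17 alternatives. All genes called numbered 353 with library totals, 597 with DESeq2, 39 and 36 with limma on log2(FPKM + 1) and log2(FPKM + 0.1), 22 with no filter, 3 with the ribosomal covariate and 68 to 233 without a library. The cytosolic median was −0.0908 with library totals, −0.10 and −0.11 on FPKM and −0.20 on TPM. The mitochondrial median was −0.12 on log2(FPKM + 0.1), −0.20 on TPM and 0.13 with the ribosomal covariate. Without a library the medians ran from −0.07 to −0.02 (cytosolic) and −0.10 to −0.01 (mitochondrial), nearest 0 without mitochondria 2 and farthest without mitochondria 1. Of the 38 members 20 kept their direction in every alternative that tested them. The causes were not tested.

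The replicate block raised all calls from 235 to 394. Same-numbered libraries correlated by 0.154, 0.179 and 0.0280 in their deviations from group means, and each library correlated best with its own number, a hint from the data, not the design.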
